A study of Mus musculus with 4 samples.

Results

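The ribosomal protein genes are the 83 genes of the count matrices whose symbols start with Rpl or Rps and a number, or are Rplp0, Rplp1, Rplp2 or Rpsa, and that held at least 1000 unique molecular identifiers (UMIs, each one a counted RNA molecule) over all libraries, out of 32285 features. Of them 49 are named for the large (60S) and 34 for the small (40S) ribosomal subunit. The name and the total UMI count chose the genes, and no comparison between groups or stages did. Of the names that fit, 3 fell below the minimum, Rpl39l with 294 UMIs, Rpl3l with 85 and Rpl10l with 0, and the lowest gene above it was Rps19bp1 with 7641. Rps19bp1 fits the naming rule but is known as an Rps19-binding protein and is no part of the ribosome, and Rps27rt is a retrogene copy of Rps27, so that reads could be split between those copies and their counts are uncertain.

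Whole thymi of mice on the C57BL/6 background, 6 to 8 weeks of age, were dissociated and profiled by droplet single-cell RNA-seq that reads the 3′ ends of transcripts, with 2 libraries of each genotype. Control mice were Tox4 fl/fl, and cKO mice were Tox4 fl/fl;Lck-Cre, so that both carried the floxed Tox4 allele and only the cKO mice carried the Cre transgene. The proximal Lck promoter drives Cre in the T lineage, and is not known to act in B cells, macrophages or other cells of the thymus. Floxed exons 4 to 6 lie away from the 3′ end of Tox4, so the Tox4 count does not check the deletion: over all cells kept Tox4 had 68.6 and 73.5 CPM (counts per 1000000 UMIs) in control and 54.3 and 62.2 CPM in cKO libraries.

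A ribosome is built from ribosomal RNA and one copy each of most ribosomal proteins, and the messages of these proteins are among the most abundant of any growing cell. Many of them begin with a run of pyrimidines at the 5′ end, the TOP motif, through which mTOR signalling controls their translation. Thymocytes pass from double negative (DN) cells through large cycling double positive blasts (DPbla) to small double positive cells that rearrange the T cell receptor alpha locus (DPre), then to cells under selection (DPsel) and to single positive cells, and size and protein synthesis fall and rise along this path. Rpl22, a 60S protein that the core ribosome can do without, is known to be needed by alpha-beta T cells at the DN stage, and Rpl22l1 is its paralog.

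To show what the start of these genes looks like, 30 bases of 9 members are printed from RefSeq (GRCm38.p6), with the annotated transcription start at base 16. The set holds Rpl31, Rps26, Rplp2 and Rps25, which were called higher in cKO cells, the paralog pairs Rps27 and Rps27l (the latter also called higher) and Rpl22 and Rpl22l1, and Rpl35, a 60S gene with a long tract and a small genotype difference. Capitals mark a pyrimidine tract, which is a C followed by at least 4 bases that are C or T, beginning within 5 bases of the start.
Rps27 (chr3:90213634-90213663, minus strand): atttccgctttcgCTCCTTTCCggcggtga
Rps27l (chr9:66946071-66946100, plus strand): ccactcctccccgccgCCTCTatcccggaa
Rpl22 (chr4:152325711-152325740, plus strand): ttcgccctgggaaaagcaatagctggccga
Rpl22l1 (chr3:28805493-28805522, plus strand): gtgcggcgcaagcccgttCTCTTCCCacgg
Rpl31 (chr1:39367836-39367865, plus strand): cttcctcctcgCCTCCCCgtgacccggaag
Rps26 (chr10:128626492-128626521, minus strand): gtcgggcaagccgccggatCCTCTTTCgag
Rps25 (chr9:44407699-44407728, plus strand): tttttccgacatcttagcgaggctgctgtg
Rplp2 (chr7:141447636-141447665, plus strand): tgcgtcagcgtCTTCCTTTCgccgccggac
Rpl35 (chr2:39005117-39005146, minus strand): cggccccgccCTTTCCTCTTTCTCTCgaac

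Promoter sequences were matched for 63 of the 83 members. A tract as defined stood at the start of 30 of these 63 (47.6%), against 5718 of 27025 genes of the table (21.2%). Widening the distance to 10 bases gave 37 members (58.7%) and 34.4% of all genes. Of motifs searched on both strands from 250 bases before to 50 bases after the start, CCGGAAG, the core bound by ETS factors, was found in 25 members (39.7%) and in 9.93% of all genes. GGGCGG, an Sp1-type box, was found in 40 members (63.5%) and 38.2% of genes, AAGATGGC, a YY1-type motif, in 6 (9.52%) and 3.19%, TATAAA in 7 (11.1%) and 15.7%, and CCAAT in 20 (31.7%) and 41.1%. The matches describe letters in these windows, and a tract further from an annotated start is missed.

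Over the 4 libraries the 83 genes held 43696263 of 204258388 UMIs (21.4%). The UMIs were spread over many members: the 10 genes with most UMIs held 19.3% of the member UMIs, among them Rps24 (1040056 UMIs, 2.38%), Rps29 (878432), Rplp1 (831810) and Rpl13 (831567). The lowest were Rpl22l1 (122045), Rps27l (76421), Rps27rt (22712), Rpl7l1 (13720) and Rps19bp1. Mitochondrial ribosomal protein genes, 78 in number, held 0.649% of all UMIs and ribosomal pseudogene features 0.00937%.

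The libraries held 11790 to 17347 droplets and 42716798 to 62007453 UMIs, and 5648 to 12027 cells per library were kept. Between 20.6% and 48.3% of droplets had over 10% mitochondrial UMIs and were left out, with the high values in replicate 1 of both genotypes. Any pair of libraries shared 36 to 70 barcodes. Clusters were built without the 83 genes and named from fixed marker lists. The class that took the place of CD8 single positive cells had more CD4 single positive markers than CD8 markers among its leading genes and is called Nkg7+ after one of its own. DN cells numbered 73 and 112 among control and 151 and 306 among cKO cells, the fewest of the 6 stages in 3 of the 4 libraries.

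Ribosomal protein messages took the largest share of UMIs at the 2 ends of the path and the smallest in DPre cells. The mean share of DN cells was 29.4% ± 0.731 (SD, n = 4 libraries). It was 20.5% ± 2.72 for DPbla and 17.3% ± 1.71 for DPre cells, then 21.5% ± 1.14 for DPsel, 29.6% ± 0.182 for CD4SP and 30.2% ± 0.518 for Nkg7+ cells. Neighbours DN and CD4SP, and DPbla and DPsel, did not differ beyond their spread, and Nkg7+ stood above CD4SP in all 4 libraries, by 1.11, 0.116, 0.988 and 0.284 points (control 1, control 2, cKO 1, cKO 2). The fall from DN to DPbla was a change of -8.9 percentage points on average, and the rise from DPsel to CD4SP averaged 8.10. All 4 libraries showed DPbla above DPre, by 1.32, 3.65, 2.37 and 5.43 points (control 1, control 2, cKO 1, cKO 2; mean 3.19 ± 1.77 SD), a mean that became 7.12 when cells with extreme UMI totals were kept. With 4 libraries the exact two-sided sign-flip permutation test cannot go below p = 0.125, the value each of these differences reached.

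**Figure D1:**
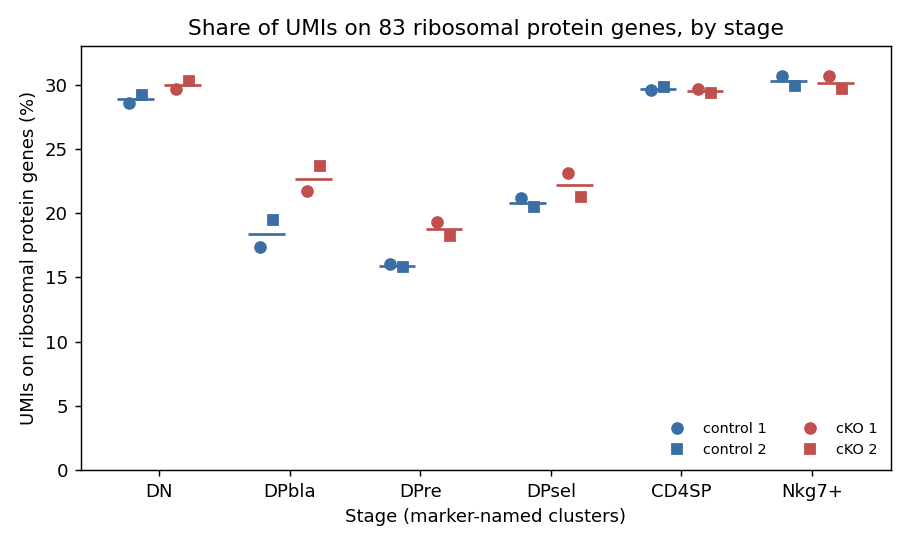
Percent of UMIs on the 83 ribosomal protein genes (vertical axis) in each stage (horizontal axis), 1 point per library, coloured by genotype, with circles for replicate 1, squares for replicate 2 and bars for group means. DPre holds the lowest shares, and the cKO points lie above the control points in DN, DPbla, DPre and DPsel but mix with them in CD4SP and Nkg7+.

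Within DPbla the share differed between clusters. Cluster 8, led by the replication genes Hells and Cdc6, held 23.0%, 24.8%, 27.1% and 28.3% (control 1, control 2, cKO 1, cKO 2). Cluster 7, led by Mki67 and Top2a, held 14.2%, 16.3%, 17.6% and 19.8%, lower by 8.82 points on average (SD 0.457 over 4 libraries). Cluster 12, led by Cenpf and Cdc20, which act in mitosis, held 14.4%, 15.5%, 16.2% and 17.3%. The Hells cluster was the highest of the 3 in every library. A low-depth cluster of the same class, with a median of 857 UMIs per cell, held 24.98% to 29.1% and its genotypes overlapped.

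Clusters of the later stages differed as well. Among DPre cells, cluster 2, marked by Tubb2b and Insl5, held 18.4%, 18.1%, 21.1% and 20.3%, and cluster 1, marked by Xrra1, held 14.6%, 14.5%, 17.7% and 17.0%, a mean gap of 3.52 points. Among DPsel cells, cluster 3 with Cd5 and Egr1, a gene induced by receptor signals, held 15.3%, 15.7%, 18.2% and 17.6%. Cluster 5 with Itm2a and Il7r, the interleukin 7 receptor, held 23.6%, 23.4%, 24.9% and 23.4%, which is 7.13 points more on average, in all 4 libraries. Cluster 13 of the same stage, with Nr4a1 and Tnfrsf9, which receptor signals also induce, held 25.8%, 25.5%, 26.5% and 25.7%, the highest of the 3 in every library.

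**Figure D2:**
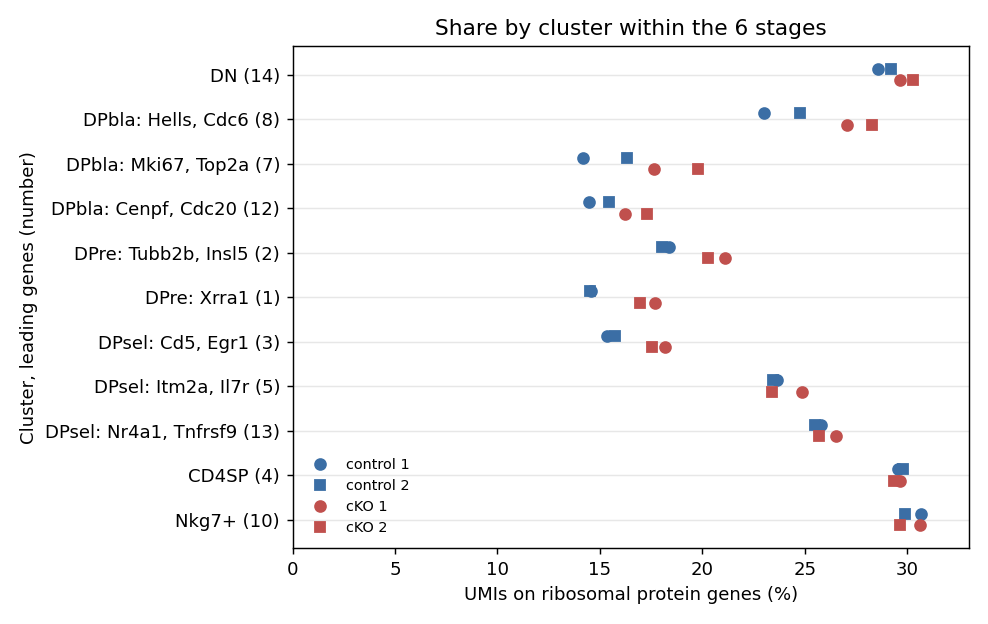
Percent of UMIs on ribosomal protein genes (horizontal axis) in each cluster (vertical axis), coloured by genotype, with circles for replicate 1 and squares for replicate 2. The Hells cluster 8 stands 8.82 points above the Mki67 cluster 7 on average, and cKO points lie to the right of control points in the DPbla and DPre clusters drawn, which leave out the low-depth cluster 6.

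Cells with the deletion gave a larger part of their UMIs to ribosomal protein messages at the double positive stages. The 2 control libraries gave 16.03% and 15.8% for DPre cells and the 2 cKO libraries 19.3% and 18.2%, which is 2.84 points higher, a ratio of 1.18. For DPbla cells the share was 17.3% and 19.5% against 21.7% and 23.6%, 4.25 points higher, a ratio of 1.23. In neither stage did the groups overlap, and the gap was larger than the spread within either group. The clusters of DPbla cells were not in the same proportion in both genotypes: the low-depth cluster, with a high share, made up 25.3% and 27.4% of control and 37.7% and 31.5% of cKO DPbla cells, and the Cenpf cluster, with a low share, 25% and 18.3% against 13.97% and 14.9%. Within clusters the genotype difference was 1.72 points in the low-depth, 3.46 in the Mki67, 3.78 in the Hells and 1.80 in the Cenpf cluster, and with equal weight for each of the 4 clusters the DPbla difference was 2.69 points. DN cells had 28.6% and 29.2% against 29.7% and 30.3% (1.09 points), and DPsel cells 21.1% and 20.5% against 23.1% and 21.2% (1.37 points), both without overlap. The DPsel gap is close to the cKO spread (SD 1.35) and was 0.409 points without cKO 1. Among the DPsel clusters the difference was 2.34 points in cluster 3, without overlap. It was 0.601 in cluster 5 and 0.458 in cluster 13, where the groups overlapped.

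Single positive cells showed no such gap. The share of CD4SP cells was 29.6% and 29.8% in control and 29.7% and 29.4% in cKO libraries (difference -0.168), and that of Nkg7+ cells 30.7% and 29.9% against 30.6% and 29.6% (difference -0.145), with overlap in both. Averaged over the 6 stages with equal weight the share was 23.9% and 24.1% in control and 25.7% and 25.4% in cKO libraries, 1.54 points higher. The exact two-sided permutation test gave p = 0.333, the smallest value that 2 against 2 libraries allow. In 2 classes outside the T lineage the genotypes overlapped, with 19.1% and 15.9% against 20.9% and 17.9% in the mononuclear phagocyte (MPS) class, where cKO was the higher within each replicate number, and 28.6% and 29.7% against 27.5% and 28.9% in B cells. An unnamed cluster of 361 cells, led by epithelial genes such as Krt8 and Psmb11 but mixed with DPre markers, held 17.3% and 15.8% against 20.4% and 18.4%, higher in cKO without overlap. The study describes 2 pairs of control and cKO mice, so the replicates behind every p here are 2 mice of a genotype, each with 1 library. The permutation p takes its smallest value for any groups that do not overlap, and does not measure the size of a gap.

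Both subunits moved. In DPbla cells the 60S genes held 9.59% and 10.8% in control and 11.9% and 12.9% in cKO libraries, and the 40S genes 7.76% and 8.71% against 9.76% and 10.7%. The 60S to 40S ratio of UMIs was 1.24 and 1.24 in control and 1.22 and 1.21 in cKO DPbla cells, and 1.30 and 1.29 against 1.28 and 1.27 in DPre cells, lower in cKO without overlap in both stages. The ratio overlapped in DN, DPsel and Nkg7+ cells and stood the other way in CD4SP cells, at 1.197 and 1.202 against 1.218 and 1.205.

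A share depends on the member UMIs and on all other UMIs of a cell. In DPbla cells the mean number of member UMIs per cell was 1266 and 1340 in control and 1441 and 1432 in cKO libraries, 1.10 times higher, while all other UMIs were 6035 and 5543 against 5200 and 4628, 0.849 times. Without the low-depth cluster the member UMIs were 1568 and 1704 against 2138 and 1920, 1.24 times, and the other UMIs overlapped. In DPre cells the member UMIs per cell were 526 and 451 against 607 and 441, 1.07 times, and overlapped. All other UMIs were 2758 and 2399 against 2532 and 1981, 0.875 times, and overlapped too. Member UMIs of DN and DPsel cells were 0.979 and 0.938 times those of control, and their other UMIs 0.931 and 0.859 times, all with overlap. In CD4SP cells the member UMIs (1837 and 1711 against 1602 and 1279) and the other UMIs fell short of control by a like factor, 0.812 and 0.818. UMIs per cell also follow sequencing depth and capture, and a smaller number of molecules per cell cannot be told apart from a lower capture.

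Depth and mitochondrial share moved with the genotype, so cells were also compared in bins of both. The median UMI total of DPbla cells was 7798 and 7172 in control and 6334 and 5880 in cKO libraries, and their mitochondrial share was 5.14% and 5.55% against 4.67% and 4.98%. Among DPbla cells binned by UMI total the groups did not overlap in 4 of 5 bins (differences of 1.13 to 5.38 points, the smallest of them in the overlapping bin of 1500 to 3000 UMIs). The bins of mitochondrial share were taken without the low-depth DPbla cluster, and there the groups did not overlap in 3 of 3 (3.72 to 4.57). DPre cells did not overlap in 4 of 4 bins by UMI total (2.58 to 5.05) and 4 of 4 by mitochondrial share (2.10 to 3.14). CD4SP cells overlapped in both bins by UMI total and were lower in cKO cells by 2.18 points in 1 of 2 mitochondrial bins.

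**Figure D3:**
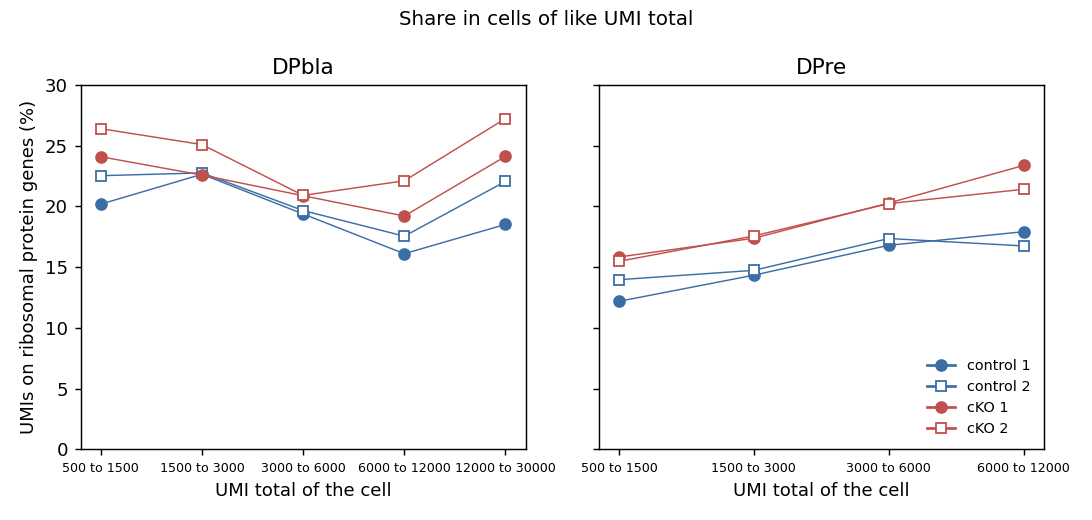
Percent of UMIs on ribosomal protein genes (vertical axis) in DPbla (left) and DPre cells (right) grouped by the UMI total of the cell (horizontal axis), 1 line per library, coloured by genotype. Both cKO lines lie above both control lines in every DPre bin and in all DPbla bins but that of 1500 to 3000 UMIs.

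RNA of other cell types was low in these classes but differed between genotypes. The summed CPM of 6 erythroid markers was 21.0 and 16.6 in control and 27.9 and 40.7 in cKO DPre cells, and 13.4 and 8.68 against 16.8 and 20.4 in DPbla cells, higher in cKO without overlap. The 10 MPS markers summed to 270 and 254 against 276 and 292 CPM in DPre cells and overlapped in DPbla cells (231 to 275 CPM). The 6 B cell markers summed to 495 and 439 against 572 and 501 CPM in DPre cells and overlapped in DPbla cells. In CD4SP cells, erythroid markers (9.57 and 11.5 against 18.2 and 28.1 CPM), MPS markers (138 and 125 against 184 and 175 CPM) and 7 markers of thymic epithelial cells (39.9 and 40.6 against 55.7 and 50.97 CPM) were all higher in cKO without overlap, and B cell markers overlapped. The erythroid class itself gave 1.08% to 6.37% of its UMIs to the 83 genes, below every stage, and the part of these RNAs in the results was not tested.

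Tested gene by gene with edgeR's quasi-likelihood test and Benjamini-Hochberg adjustment over all genes, 16 of the 83 members were higher in cKO DPre cells at an adjusted p under 0.05 and 0 were lower. The share of all 11726 genes called higher was 1.25%. Of the 83, 82 had a positive log2 change, with a median of 0.28 against -0.001 over all genes tested. Rpl23a (chr11:78180932-78183584, minus strand), a 60S protein at the exit of the peptide tunnel, stood at 934 and 1070 CPM in control and at 1450 and 1590 CPM in cKO libraries. Its log2 change was 0.63 ± 0.098 (SE; adjusted p = 0.00249, edgeR). Rplp2, an acidic protein of the stalk that recruits elongation factors, stood at 1680 and 1630 against 2430 and 2240 CPM, a log2 change of 0.54 ± 0.090 (adjusted p = 0.00433). Both genes had every cKO library above every control library.

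The other members called in DPre cells were 40S genes for the greater part. Rps15, at the head of the 40S subunit near the decoding site, stood at 1280 and 1390 against 1780 and 1860 CPM (log2 change 0.49 ± 0.091). Rps25, a 40S head protein used by viral internal ribosome entry sites, stood at 916 and 1020 against 1310 and 1310 CPM (0.48 ± 0.093). Both lie above the control range by more than the gap between replicates. Rps12, Rps14, Rps19, Rps20, Rps26, Rps27a, Rps27l, Rpl5 and Rpl31 were also among those called. The count of 16 fell to 4 without control 1, 6 without control 2 and 11 without cKO 1, and rose to 47 without cKO 2.

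In DPbla cells 10 of the 83 members were called higher and 0 lower (edgeR, adjusted p under 0.05), against 1.59% of all 10874 genes called higher. All 83 changes were positive, with a median of 0.35 against -0.004 over all genes. Rpl23a stood at 1140 and 1490 against 1730 and 2230 CPM (0.64 ± 0.149, adjusted p = 0.0345; DESeq2 gave 0.355). Rps25 stood at 1110 and 1420 against 1720 and 1970 CPM (0.59 ± 0.134, adjusted p = 0.0306). Rps26, which lies in the messenger RNA exit channel, stood at 2160 and 2470 against 3130 and 3390 CPM (0.54 ± 0.12, adjusted p = 0.0270). These 3 genes were also among those called in DPre cells.

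Rpl31 (0.52 ± 0.112), a 60S protein near the tunnel exit, was also called in DPbla cells, as were Rpl36a, Rpl36al, Rpl37, Rps27l and Rps27rt. The smallest changes were those of Rpl7l1 (0.09) and Rpl35 (0.13), which did not pass. The count rested on the libraries used: it was 1 without control 1, 42 without control 2, and 0 without cKO 1 or without cKO 2. Counting only whether both cKO libraries lay above both control libraries, 79 members did so in DPbla cells, where 18.1% of all genes did, and 75 in DPre cells, where 18.4% did.

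**Figure D4:**
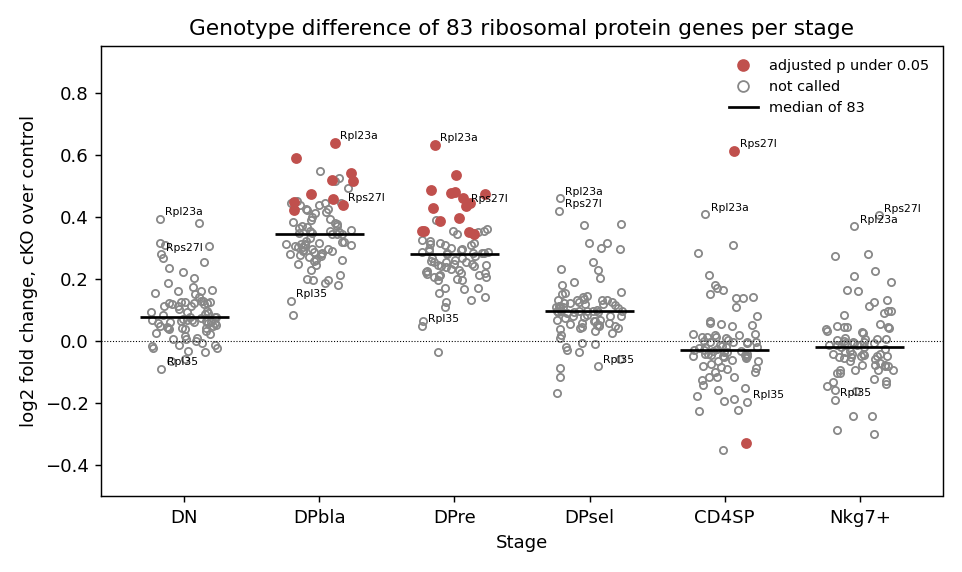
log2 change between cKO and control (vertical axis, edgeR estimates) of the 83 ribosomal protein genes, 1 point per gene, in each stage (horizontal axis), filled red where the adjusted p is under 0.05, with the median of the 83 as a bar and Rpl23a, Rps27l and Rpl35 labelled. Nearly all points lie above 0 in DPbla (83 of 83) and DPre (82 of 83), while those of CD4SP (29 of 83 above) and Nkg7+ (31 of 83) scatter around 0, with Rps27l the highest in CD4SP.

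At the other stages few or no members passed. In DN cells 0 of 83 were called, with 0.0457% of all genes called, although 72 changes were positive, 12 had an unadjusted p under 0.05, and DESeq2 called 0. In DPsel cells 0 were called by edgeR against 0.103% of genes, 73 changes were positive, 11 had an unadjusted p under 0.05, and DESeq2 called 1. In Nkg7+ cells 0 were called against 0.519% of genes, with 12 at an unadjusted p under 0.05 and 0 called by DESeq2. In MPS cells 0 were called against 0.00% of 6176 genes, with 0 at an unadjusted p under 0.05, while 80 changes were positive with a median of 0.19. The libraries did not overlap, with cKO higher, for 27 members in DN cells (16.3% of all genes), 41 in DPsel cells (17.9%) and 21 in MPS cells (11.8%).

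CD4SP cells had 2 members called, against 0.342% of all genes, and in opposite directions. Rps27l, a paralog of Rps27 known as a target of p53, stood at 166 and 151 CPM in control and 264 and 229 CPM in cKO libraries, a log2 change of 0.61 ± 0.117 (edgeR, adjusted p = 0.00891). Rpl23a stood at 1470 and 1780 against 2020 and 2370 CPM, with a log2 change of 0.41 that did not pass (adjusted p = 0.0622). Of the members 17 were higher (21.3% of all genes) and 21 lower (17.1%) without overlap in CD4SP cells, and 21 higher (21.0%) and 25 lower (17.0%) in Nkg7+ cells. With TMM scaling 29 members had a positive change in CD4SP and 31 in Nkg7+ cells, and with library size only 40 and 42.

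The genotype difference of many members depended on the stage. The test of the difference itself, an interaction of genotype and stage over 24 sums of cells (edgeR), called 59 of the 83, where it called 3.47% of all genes. Rps19, the gene most often mutated in Diamond-Blackfan anaemia, had an adjusted p of 5.19e-05. It stood at 1990 and 2300 against 2630 and 3010 CPM in DPbla cells and at 4510 and 4410 against 4010 and 3950 CPM in CD4SP cells, where the order of the groups was the other way round. Rpl22l1 (adjusted p = 0.000578) stood at 324 and 301 against 353 and 314 CPM in DPre cells and at 1100 and 1030 against 856 and 838 CPM in CD4SP cells. In all, 24 members were higher without overlap in DPbla and DPre cells and lower without overlap in CD4SP or Nkg7+ cells, as were 1.39% of the 8058 genes tested in all 6 stages. The count of 59 fell to 1 without control 1 and to 2 without cKO 2, and was 32 without control 2 and 36 without cKO 1.

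Other members kept 1 direction along the whole path. In 13 members both cKO libraries lay above both control libraries in each of the 6 stages, as did 0.931% of the 8058 genes, and the stages share the 4 libraries. The 13 included Rpl23a, Rpl31, Rplp2, Rps12, Rps15, Rps25 and Rps26. Rpl23a stood at 1700 and 1930 against 2160 and 2520 CPM in DN cells, at 1160 and 1340 against 1630 and 1790 in DPsel cells, and at 1610 and 1870 against 2140 and 2430 in Nkg7+ cells. For Rpl23a (adjusted p = 0.141), Rpl31 (0.485) and Rps27l (0.804) the edgeR interaction test did not pass. It passed for Rps26 (0.00157), Rps12 and Rps25 (0.0249 each), Rplp2 (0.0363) and Rps15 (0.0457), whose difference had the same direction in each stage. As given above, the number of calls of this test depended on single libraries, and the calls of these genes were not repeated without them.

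Members were also read as a percent of the member UMIs, a description of group means with no test, in which stages share the 4 libraries. By the means, 19 members had a higher and 16 a lower percent in cKO cells in all 6 stages. Rpl23a led the first set, with log2 ratios of 0.30 to 0.44 over the stages, and the set also held Rps27l (0.09 to 0.64), Rpl31 (0.17 to 0.34) and Rps25 (0.20 to 0.25). Rpl22l1 led the second set (-0.32 to -0.14), which also held Rplp0 (-0.22 to -0.08), Rpl13a (-0.21 to -0.09) and Rpl35 (-0.23 to -0.16), whose level over all kept cells also differed between replicates by 0.25 and 0.24 in control and cKO libraries.

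The same genes were then read in classes where Lck-Cre is not known to act, a choice made after their values were seen. Rpl23a stood at 1194 and 1231 CPM in control and 1458 and 1802 CPM in cKO B cells, on 33 to 48 cells and 195 to 332 UMIs of Rpl23a per library. In MPS cells it stood at 1076 and 983 against 1358 and 1462 CPM. Rpl23a was thus higher in the cKO libraries in these classes too, without overlap. In B cells Rps26 stood at 3657 and 3592 against 3911 and 3908 CPM and Rps15 at 1954 and 2102 against 2293 and 2329 CPM, while Rpl31 (789 to 890 CPM), Rps25 and Rps27l overlapped. B cells held RNA of DPre markers at 622 to 1069 CPM in sum and MPS cells at 1681 to 3539 CPM, against 6450 to 7173 CPM in DPre cells, and the part of that RNA in these values was not tested.

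The stalk of the 60S subunit is built from Rplp0, Rplp1 and Rplp2. In DPre cells Rplp1 stood at 2730 and 2680 against 3230 and 3170 CPM (0.28 ± 0.086, adjusted p = 0.107, edgeR) and Rplp0, which anchors the other 2, at 2880 and 2880 against 3380 and 3040 CPM (0.20 ± 0.091, adjusted p = 0.319). Only Rplp2 of the 3 passed. In CD4SP cells Rplp2 was 3300 and 3400 against 3860 and 3860 CPM and Rplp0 5110 and 5420 against 4740 and 4440 CPM, apart in opposite directions though neither passed (adjusted p = 0.509 and 0.333).

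Rpl5 and Rpl11 form the 5S particle with 5S ribosomal RNA, which can bind Mdm2 and so stabilise p53. Rpl5 stood at 1010 and 1160 against 1410 and 1480 CPM in DPre cells and was called higher (0.44 ± 0.096, adjusted p = 0.0225, edgeR). Rpl11 stood at 2950 and 3050 against 3450 and 3280 CPM there and did not pass (0.21 ± 0.088, adjusted p = 0.278). In DPbla cells neither passed, at 0.51 for Rpl5 (adjusted p = 0.0543) and 0.28 for Rpl11 (adjusted p = 0.253).

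Of the paralog pair Rpl22 and Rpl22l1 neither passed in the genotype comparisons of double positive cells. Rpl22 stood at 1250 and 1170 against 1550 and 1390 CPM in DPre cells (0.32 ± 0.094, adjusted p = 0.0941, edgeR), and Rpl22l1 changed by 0.13 ± 0.098 (adjusted p = 0.581). Across stages Rpl22l1 was the more variable: it averaged 972 CPM in DN, 507 in DPbla, 323 in DPre, 674 in DPsel and 955 in CD4SP cells, while Rpl22 averaged 1960, 1740, 1340, 1580 and 2160. Rps27 and Rps27l moved in opposite directions, with Rps27l at 482 CPM in DPbla and 202 in CD4SP cells and Rps27 at 2700 and 5050. Rps27a, which is made as a fusion with ubiquitin, was called higher in DPre cells (2620 and 2660 against 3280 and 3260 CPM; 0.35 ± 0.086, adjusted p = 0.0473).

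Gene by gene, the stages differed in nearly every member. In DPbla against DPre cells 78 members were higher and 2 lower (edgeR, adjusted p under 0.05), where 33.7% of all 11119 genes were higher and 41.1% lower, and the median log2 change was 0.51 against -0.1. The members furthest above their DPre level were Rps27l (1.29 ± 0.060), Rpl3 (1.18 ± 0.080), a protein of the peptidyl transferase centre, Rpsa (1.16 ± 0.084), also known as a laminin receptor, Rps2 (1.10 ± 0.093) and Rpl14 (1.02). Rps2 stood at 1710, 2220, 2570 and 3000 CPM in DPbla and at 1130, 1200, 1440 and 1400 CPM in DPre cells (control 1, control 2, cKO 1, cKO 2). Rps27 (-0.15 ± 0.061) and Rps27rt (-0.17 ± 0.070) were lower in DPbla cells, but no member was when the scaling was estimated without the 83 genes. With library size only, 57 were higher and 4 lower, with a median of all genes of -0.327.

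Coming from DN, DPbla cells had 75 members lower and 1 higher (29.4% of all genes fell and 31.0% rose). Rps19 fell by 0.89 on the log2 scale, from 4760 to 4970 CPM over the DN libraries to 1990 to 3010 CPM, and Rpl22l1 by 0.84, Rps18 by 0.74, Rpl37 by 0.73 and Rpl36a by 0.70. Rps27l was the gene that rose (0.21 ± 0.065), a call lost without cKO 1 (edgeR, adjusted p = 0.0706), without cKO 2 (0.0553) and with library size only (0.129). Rpl22 (-0.08) was among those that did not pass. The fall was smaller with cells of extreme UMI totals kept, when 49 members were lower and 4 higher and the median change was -0.154 in place of -0.369. In DPsel against DPre cells 74 members rose and 0 fell (30.5% and 30.1% of genes), with Rpl22l1 (1.15), Rps2 (1.04), Rpl3 (0.99), Rpl36a (0.94) and Rpsa (0.92) the largest. Rpl11 (0.03) did not pass in that step.

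Into the single positive stages the rise was general. In CD4SP against DPsel cells 80 members rose and 2 fell, where 18.3% of genes rose and 18.1% fell. Rps18 (0.90), Rps24 (0.90), Rps29 (0.89), Rpl39 (0.87) and Rps19 (0.87) rose most, and Rps27l fell (-0.21 ± 0.068), as did Rps19bp1 (-0.33 ± 0.105). In Nkg7+ against DPsel cells 81 rose and 1 fell (23.3% and 25.2% of genes), among them Rps18 (1.01), Rpl32 (0.96), Rpl39 (0.95) and Rps24 (0.92), while Rpl7l1, an Rpl7-like gene, fell (-0.24 ± 0.085). These 3 falls each rested on single libraries (edgeR). The call of Rps27l was lost without control 1 (adjusted p = 0.199) or control 2 (0.0599), that of Rps19bp1 without control 2 (0.133) or cKO 2 (0.111), and that of Rpl7l1 without any 1 of the 4 libraries (0.0995 to 0.597). Rps24 stood at 4810 to 5590 CPM in DPsel and at 8000 to 8230 CPM in CD4SP cells, with no overlap.

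As a percent of member UMIs, the members differed in how far they ranged over the stages. Rps27l ranged most, from 0.234% in DPbla to 0.0684% in CD4SP cells (1.78 on the log2 scale), and others with a wide range were Rps19bp1 (1.04), Rpl7l1 (1.003), Rps2 (0.87, from 1.36% in DN to 0.744% in DPre) and Rpl3 (0.85, from 1.0% in DN to 0.558% in DPre). Among members above the median level the steadiest were Rpl9 (0.13), Rps27a (0.14) and Rps26 (0.17). The pool percent of Rps27l thus fell after DPbla, and those of Rps2 and Rpl3 were lowest in DPre.

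**Figure D5:**
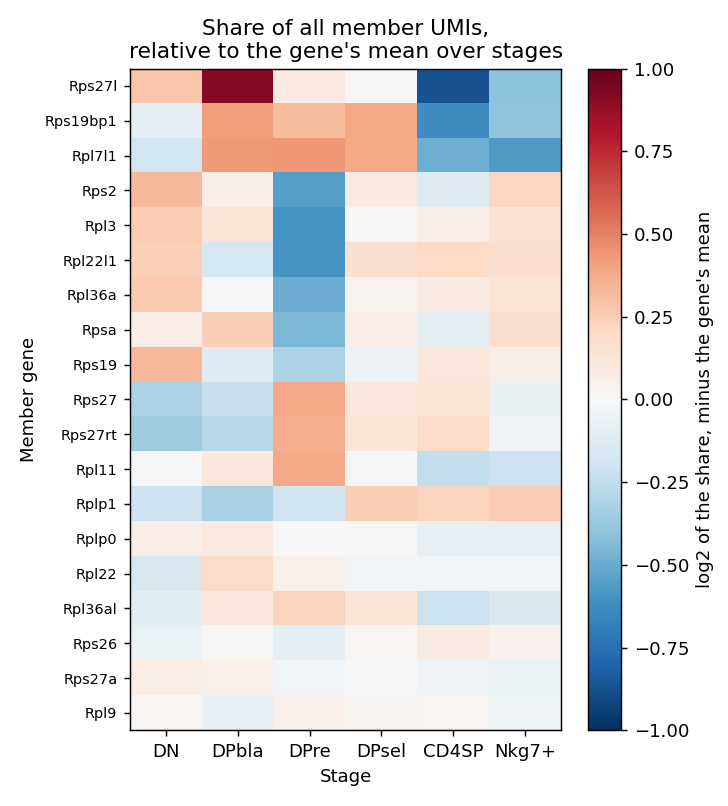
Share of the ribosomal protein UMIs held by selected members (rows) in each stage (columns), as the log2 of the mean share of the 4 libraries minus the gene's mean over the stages (colour, red high and blue low). Rps27l is lowest in CD4SP, Rps2 and Rpl3 in DPre, and Rpl9, Rps27a and Rps26 stay near 0.

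Members with and without a tract as defined had much the same median changes. The split rests on annotated starts, so a member without a marked tract may still hold one further away. Control through the TOP motif was not tested. In the genotype comparison of DPbla cells the 30 members with a pyrimidine tract had a median log2 change of 0.34 and the 33 without one 0.35. In DPre cells the medians were 0.26 and 0.28, and in CD4SP cells -0.03 and -0.03. In DPbla against DPre cells they were 0.49 and 0.51. Rps25, whose start holds no tract as defined, was called in both double positive stages, as were Rpl31, Rps26 and Rps27l, whose starts hold one. Rpl35, which has a long one, was called in neither.

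Other genes of ribosome production were read from lists. Of 30 ribosome biogenesis genes 12 rose in cKO DPbla cells and 0 fell (edgeR, against the same 1.59% of all genes), among them Rrp12 (1.28), Mybbp1a (1.02), Rrp1b (0.91) and Gnl3 (0.81), all of which act in the nucleolus, and the median change was 0.50 against -0.004. The 12 calls became 8 without control 1, 15 without control 2, 1 without cKO 1 and 0 without cKO 2, with 29 of the 30 changes positive each time. In DPre cells 3 rose (1 without control 1), Gnl3 (0.69) and the H/ACA small nucleolar RNA proteins Gar1 (0.61) and Nhp2 (0.57). Of all genes tested in DPre cells 1.25% were called higher. No gene of the biogenesis list passed in the other stages. The interaction test called 14 of the 30, 6 of 29 translation factors, 4 of 10 host genes of small nucleolar RNAs and 3 of 78 mitochondrial ribosomal protein genes, against 3.47% of all genes. As given above, its count of members fell to 1 or 2 without single libraries, and these list counts were not repeated without them.

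Translation factors, 29 in number, had 0 called in DPbla cells and 2 in DPre cells, where 1.59% and 1.25% of all genes were called higher. The 2 were the elongation factor gene Eef1b2 (0.42) and Nap1l1 (0.39), a histone chaperone known for a TOP message. Of 10 host genes of small nucleolar RNAs Zfas1 rose in DPre cells (0.40) and none passed in DPbla cells. In CD4SP and Nkg7+ cells 0 of these 10 changes were positive (medians -0.18 and -0.20) and none passed. None of the 78 mitochondrial ribosomal protein genes passed in either stage (median change 0.11 in DPbla and 0.04 in DPre cells). In DPbla cells 26 biogenesis genes, 24 translation factors and 68 mitochondrial ribosomal protein genes were higher than in DPre cells and 1, 1 and 3 were lower, where 33.7% and 41.1% of all genes were. In CD4SP against DPsel cells 2 biogenesis genes rose and 9 fell, among them Ncl (-0.45), which encodes nucleolin (18.3% and 18.1% of all genes), and the median change of the list was -0.13. In Nkg7+ against DPsel cells 14 rose and 2 fell (23.3% and 25.2% of all genes), with a median of 0.30.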

How the data were processed

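Single-cell RNA-seq of whole thymus was read in 4 libraries, 2 control and 2 cKO. The values are UMI counts per gene and barcode as deposited by the authors, who ran cellranger 6.1.1 on GRCm38 (mm10), per the labels, the file headers and the study's methods. The counts had not been normalized, and replicates were not pooled.

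Cells with under 200 genes, in the lowest or highest 2.5% of UMI totals, or with over 10% mitochondrial UMIs were removed, as were the 5% with the highest Scrublet scores in each library (expected rate 8%). The kept cells were clustered with scanpy 1.11.5 (3000 variable genes without the ribosomal protein genes, 30 components, 20 neighbours, Leiden resolution 1) and named from marker lists. For the Nkg7+ class the CD4SP list scored slightly higher (2.835) than the CD8SP list (2.797). A rule set after the clusters were seen let the markers not shared by these lists decide, and it put the class in the place of CD8SP. Counts were summed per library and stage, so that libraries and not cells were the replicates. Shares were compared by exact permutation tests. Genes were tested with edgeR 4.0.16 (R 4.3.3), by the quasi-likelihood test with TMM scaling and filterByExpr, all genes in the fit and Benjamini-Hochberg adjustment over all of them, called at an adjusted p under 0.05. DESeq2 1.42.0 was an alternative. The interaction test had 5 terms. The fits were checked on simulated counts.

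Named members are those of fixed role lists, the 5 with most and the 5 with fewest UMIs, the 5 largest called changes in each direction per comparison (where fewer than 3 were called, the 3 with the smallest p), and the 6 with the largest and (among members above the median level) 3 with the smallest range of the pool percent, 46 in all, of which some are not reported here. Others are named where counts are spelled out and were chosen after their values were seen. The members and the gene lists were chosen with earlier results of these data known. Where a change is given as a log2 value it is edgeR's estimate, and CPM values are counts per 1000000 UMIs of the sum, without scaling factors. Promoter sequences came from RefSeq. UMI totals of 24667862 to 42098043 per library stood behind the kept cells.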

Additional observations from a re-analysis of the deposited data

Results flagged for a closer look

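The genotype difference of 59 of the 83 members differed between the 6 stages by the edgeR interaction test, among them Rps19 (adjusted p = 5.19e-05), Rpl22l1 (0.000578) and Rpsa (0.000679). The values of Rps19 and Rpl22l1 are given above, as is the strong dependence of the count on single libraries. In the same test 386 of 11119 genes (3.47%) were called.

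Droplets over the mitochondrial limit, which no comparison above uses, gave the members 10.7% and 10.6% of UMIs in control against 12.7% and 14.8% in cKO libraries, 3.09 points more, without overlap. The share in these droplets was below that of the kept cells in each library. The part of the mitochondrial share in it was not tested.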

How the results depend on the processing

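Of the share differences (by genotype, and DPbla minus DPre), 111 of 123 alternatives gave a value within the replicate spread and 12 one outside it. No genotype difference turned its sign in DN, DPbla, DPre or DPsel cells, whereas 4 did in Nkg7+ cells (-0.145; -0.644 to 0.353 without 1 library) and 1 in CD4SP cells (-0.168; 0.423 at a mitochondrial limit of 5%). The range was 2.69 to 5.31 points in DPbla and 2.21 to 3.41 in DPre cells. The mean over 6 stages (1.54 points) was 1.33 with no mitochondrial limit, 1.24 with extreme UMI totals kept, 1.68 with equal weight for each cluster, and 1.39 to 1.69 without 1 library. DPbla minus DPre (3.19 points) was 7.12 with extreme UMI totals kept and 2.45 to 3.82 without 1 library.

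The number of members called higher in cKO DPbla cells (10) was 31 with DESeq2, 47 with no filter on low counts, 1 with a mitochondrial limit of 5%, 3 with none, 0 with extreme UMI totals kept, 16 with doublets kept, 16 without the low-UMI cluster, and 0 to 42 without 1 library. In DPre cells (16) it was 36 with no filter, 1 with no mitochondrial limit, and 4 to 47 without 1 library. Over these alternatives 82 to 83 members stayed positive in DPbla (median 0.206 to 0.47) and 81 to 83 in DPre cells (0.216 to 0.339), and 0 were called lower. The members called by the interaction test (59) were 35 with library size only, 19 with no mitochondrial limit, 36 with doublets kept, 35 at resolution 0.5, 28 at resolution 1.5, and 1 to 36 without 1 library. It could not be fitted at a limit of 5%, which left under 30 DN cells in a library. The 80 calls of DPbla against DPre were 78 to 81 without 1 library. Of 896 alternatives for named members 768 kept the side of the threshold and the direction, 91 lost the call, 36 gained it and 1 reversed, Rps27 in DPbla against DPre with extreme UMI totals kept (0.01). The causes were not tested.

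With the replicate number as a block, 74 members were called in DPbla and 63 in DPre cells, and the mean share difference was 1.54. Deviations of same-numbered libraries correlated at 0.298 over all genes in DPbla and 0.301 in DPre cells. The share of MPS cells was higher in cKO within both numbers. The study describes 2 pairs of mice, but the labels do not say that the numbers mark those pairs, and 2 pairs cannot show it, so the block was not used for the results.

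Calls rest on 2 libraries a genotype, and the lone library left in a genotype when 1 was dropped was assumed to vary like the rest. Alternatives for the interaction test, the cluster of low depth, the equal weights and the matched bins were chosen after seeing the data. The genes that passed the filter on low counts numbered 6176 in MPS, 8762 in DN and 10874 in DPbla cells.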

Other observations

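Replicates 1 and 2 differed in the same members in both genotypes. Over all kept cells 16 members were more than 0.1 log2 higher in replicate 1 than in replicate 2 in control and in cKO libraries, among them Rps28 (0.34 and 0.23), Rpl35 (0.25 and 0.24), Rpl41 (0.24 and 0.23), Rpl39 (0.22 and 0.23) and Rps21 (0.22 and 0.19). Rpl23a (-0.23 and -0.21) and Rps15 (-0.14 and -0.10) stood the other way. Rpl23a, the member with the largest genotype difference in DPbla and DPre cells, was thus also one that differed between replicates. In DPbla cells the deviations of the 83 members from their group means correlated at 0.896 between same-numbered libraries and in DPre cells at 0.867, values over genes that share their libraries.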
